A study of Homo sapiens with 12 samples.

Results

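The genes of oxidative phosphorylation were examined in RPE-1 and HCT116 cells after p53 activation. Members were the protein-coding genes whose symbol, in both tables of the series, is that of a subunit of the respiratory complexes or of ATP synthase, by a fixed pattern of symbols. The pattern held 95 of the 25914 listed genes: 82 in the nuclear genome (38 for complex I, 4 for complex II, 10 for complex III, 11 for complex IV and 19 for complex V) and 13 in the mitochondrial genome, with the prefix MT- (7, 0, 1, 3 and 2 for the same complexes). It also met 57 symbols of other biotypes, mostly pseudogenes, which are no members.

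RPE-1 is a retinal pigment epithelial line immortalized with hTERT, the catalytic subunit of telomerase, and HCT116 is a colorectal carcinoma line, and the genotype of both was given as wild-type. Each line was treated for 24 h with 10 µM Nutlin-3a, an inhibitor of MDM2 that stabilizes p53, or with its solvent DMSO, in 3 libraries per group and 12 in all. RNA depleted of ribosomal RNA was sequenced from total RNA. HCT116 was grown in high-glucose DMEM with pyruvate and RPE-1 in DMEM:F12, so that line and medium cannot be told apart in any comparison between the lines.

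Oxidative phosphorylation couples electron flow from NADH and succinate to oxygen with the synthesis of ATP. Complex I oxidizes NADH and complex II oxidizes succinate. Complex III passes the electrons through cytochrome c to complex IV, which reduces oxygen. Complexes I, III and IV pump protons across the inner mitochondrial membrane, and complex V lets them return to make ATP. All subunits of complex II are nuclear, whereas the other complexes join nuclear subunits, made in the cytosol and imported, to a few hydrophobic subunits that are transcribed and translated inside the organelle.

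The values are the log2FC of each gene (Nutlin-3a compared with DMSO control) with its standard error (SE), 1 value per gene and line; values of single libraries were not analysed here. A gene was called higher or lower where its adjusted p was under 0.05. The base mean, the average normalized count of a gene, is 1 number in both tables and gives no level for a line or a group. It also covers other libraries: 172 genes listed at a log2FC of exactly 0 in both lines have base means of up to 234. The identity of the lines could therefore not be checked against marker genes. The p53 targets MDM2 (log2FC 3.95 ± 0.11 in RPE-1 and 4.14 ± 0.11 in HCT116) and CDKN1A (3.94 ± 0.22 and 4.12 ± 0.22) rose in both lines. In RNA from bulk cultures, a change of RNA per cell and a change in the makeup of the culture cannot be told apart. The study describes its RPE-1 replicates as biological, and no source used here says so for HCT116, where p-values measure at most a spread between libraries. Because the base mean covers other libraries, the fit may have pooled its error estimate over more libraries than those of 1 line. An SE or p-value may therefore not measure the spread within its own line alone.

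More members rose than fell in both lines, and the rise was wider in RPE-1. In RPE-1, 52 of the 95 members were called higher and 3 lower, and the median log2FC was 0.37. Over all listed genes, 19.3% were called higher and 13.6% lower, with a median log2FC of 0.06. In HCT116, 18 members were called higher and 3 lower, with a median of 0.24, beside 14.9% higher and 12.2% lower over all listed genes and a median of 0.09. Most members are abundant, and calls are more frequent among abundant genes. Of the 12078 protein-coding genes with a base mean of at least 100, RPE-1 had 30.2% called higher and 21.2% called lower, and HCT116 had 23.4% and 19.2%. Of the 75 nuclear members above that limit, 42 (56.0%) rose and 2 fell in RPE-1, and 17 (22.7%) rose and 2 fell in HCT116. In HCT116 the share of nuclear members called higher thus lay near that of other abundant genes, while the share called lower (2.67%) was smaller. With the median of all genes of base mean at least 10 taken out (0.08 in each line), 42 members stayed above the threshold upward in RPE-1 and 8 in HCT116.

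The median log2FC of the MT- members lay above that of the nuclear members in both lines, and this difference was not tested. In RPE-1 the 13 MT- members had a median log2FC of 1.11, 2.17-fold, and the 82 nuclear members had one of 0.33, 1.25-fold. In HCT116 the medians were 0.67 for MT- members and 0.19 for nuclear members. The number of calls followed another order, as 10 MT- members were called higher in RPE-1 and 1 in HCT116. The SEs of the MT- members were wider (median 0.38 in both lines) than those of nuclear members (0.14 in both lines).

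**Figure D1:**
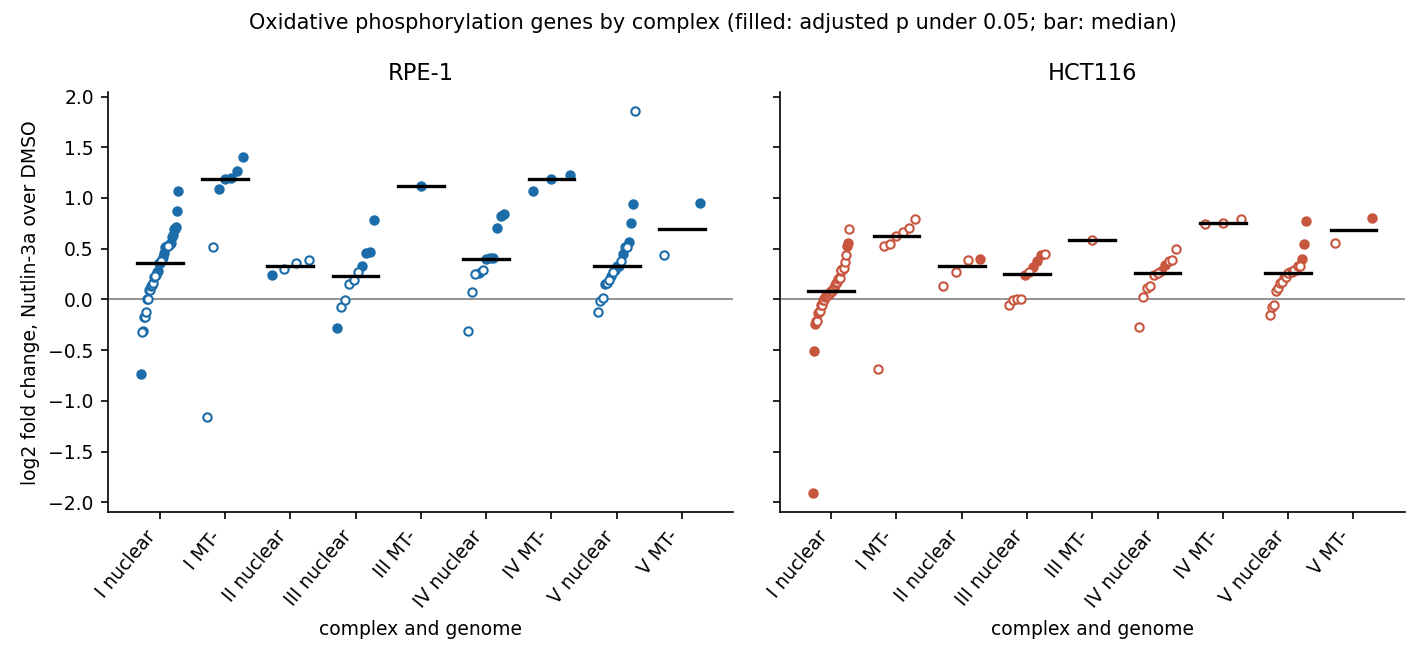
Log2FC (Nutlin-3a compared with DMSO control, y axis) of each member by complex and genome (x axis) in RPE-1 and HCT116. Each point is 1 gene, filled where its adjusted p was under 0.05, and bars are medians. The medians of the MT- groups lie above those of the nuclear groups of the same complex in both lines. MT-ND6 is the low point of complex I MT-, and the highest open point of complex V in RPE-1 is the read-through gene ATP5MF-PTCD1 (1.86 ± 0.97).

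Mitochondrial DNA is transcribed from both strands into long precursors, from which the rRNAs, mRNAs and tRNAs are cut. Of the MT- members, 12 lie on the + strand of the reference and MT-ND6 lies on the - strand. All 12 members of the + strand had a log2FC above 0 in both lines, with medians of 1.15 in RPE-1 and 0.68 in HCT116. Cut from shared precursors, they are not independent replicates. MT-ND6, a membrane subunit of complex I, had a log2FC of -1.16 ± 0.96 in RPE-1 and -0.69 ± 0.96 in HCT116, below 0 in both and passing the test in neither (adjusted p = 0.405 and 0.683).

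The other mitochondrial subunits of complex I, which form its proton-pumping membrane arm, were among the highest members in RPE-1. MT-ND4L had a log2FC of 1.41 ± 0.50 in RPE-1 and 0.79 ± 0.50 in HCT116. MT-ND1 was at 1.27 ± 0.41 and 0.67 ± 0.41, in the same order. For MT-ND5 the values were 1.19 ± 0.42 and 0.63 ± 0.42. All of these passed the test in RPE-1 and none did in HCT116. MT-ND2 was at 1.19 ± 0.41 in RPE-1 and 0.54 ± 0.41 in HCT116. MT-ND4 was at 1.09 ± 0.40 and 0.70 ± 0.40. MT-ND3 stood lower, at 0.51 ± 0.26 in RPE-1 and 0.52 ± 0.26 in HCT116. MT-ND2 and MT-ND4 were called in RPE-1, and MT-ND3 was called in neither line.

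MT-CYB, cytochrome b and the only mitochondrial subunit of complex III, rose in RPE-1 (1.11 ± 0.35, adjusted p = 0.00523) and had a log2FC of 0.59 ± 0.35 in HCT116 (adjusted p = 0.221). The catalytic core of complex IV rose as a whole in RPE-1. MT-CO1, the subunit that holds the site of oxygen reduction, was at 1.07 ± 0.33 in RPE-1 and 0.80 ± 0.33 in HCT116. MT-CO2, which takes electrons from cytochrome c, was at 1.23 ± 0.38 and 0.74 ± 0.38, and MT-CO3 was at 1.19 ± 0.36 and 0.75 ± 0.36. None of the 3 passed the test in HCT116 (adjusted p = 0.061 for MT-CO1, 0.146 for MT-CO2 and 0.115 for MT-CO3). In complex V, MT-ATP6, the proton channel subunit, rose in RPE-1 (0.95 ± 0.35) and was at 0.56 ± 0.35 in HCT116. MT-ATP8 was the sole MT- member called in HCT116 (0.80 ± 0.32, adjusted p = 0.0498) and was at 0.44 ± 0.33 in RPE-1 (adjusted p = 0.334).

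That more MT- members passed the test in RPE-1 does not show that the lines differ. None of the 13 had a called difference between the lines. The difference (RPE-1 minus HCT116) was above 0 for 10 of them, with a median of 0.44 on the log2 scale and the widest 95% interval for MT-ND6 (-3.14 to 2.19). For MT-CO1 the interval ran from -0.65 to 1.20, and for MT-ND2, with the largest difference (0.64), from -0.48 to 1.77. These intervals leave room for a difference of either sign.

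**Figure D2:**
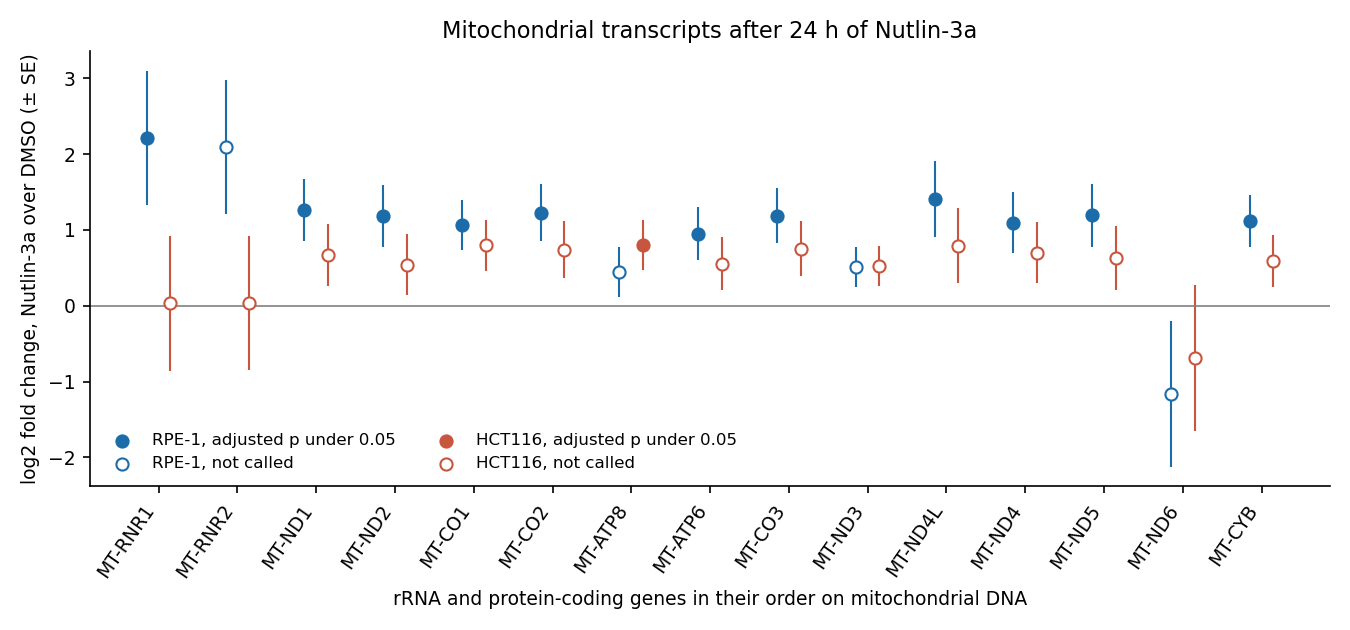
Log2FC ± SE (y axis) of the mitochondrial rRNA and protein-coding genes in their order on mitochondrial DNA (x axis) in RPE-1 and HCT116, with filled points at an adjusted p under 0.05. All protein-coding genes but MT-ND6 lie above 0 in both lines, and both rRNAs lie near 2 in RPE-1 and near 0 in HCT116. The RNA was depleted of ribosomal RNA, on which the values of the rRNAs also depend.

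The errors of the MT- members were wide for their level. For each MT- member, between 91.7% and 100.0% of the protein-coding genes with a like base mean (within 0.5 on the log2 scale) had a smaller SE. MT-CO1, with a base mean of 52621, had an SE of 0.33, and the median of its 24 like genes was 0.14 in RPE-1. The SE of MT-CO1 was the same in HCT116, to the second decimal, and the SEs of the lines may not be separate estimates. The SEs of the 2 mitochondrial rRNAs were wider still than those of most MT- members. MT-RNR1, the rRNA of the small ribosomal subunit, had a log2FC of 2.21 ± 0.89 in RPE-1 and 0.03 ± 0.89 in HCT116, and MT-RNR2 had 2.09 ± 0.88 and 0.04 ± 0.88. In RPE-1 MT-RNR1 passed the test (adjusted p = 0.0399) and MT-RNR2 did not (adjusted p = 0.0542). The RNA was depleted of ribosomal RNA, so these values also depend on what the depletion left, and its part was not tested. The difference between the lines was not called for either rRNA (adjusted p = 0.231 and 0.266). Of the 14 listed mitochondrial tRNAs, with base means of 5.06 to 71.7, 3 were called higher in RPE-1 (MT-TI, MT-TW and MT-TD) and 0 in HCT116. Whether the mRNAs vary with the rRNAs between libraries was not tested.

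**Figure D3:**
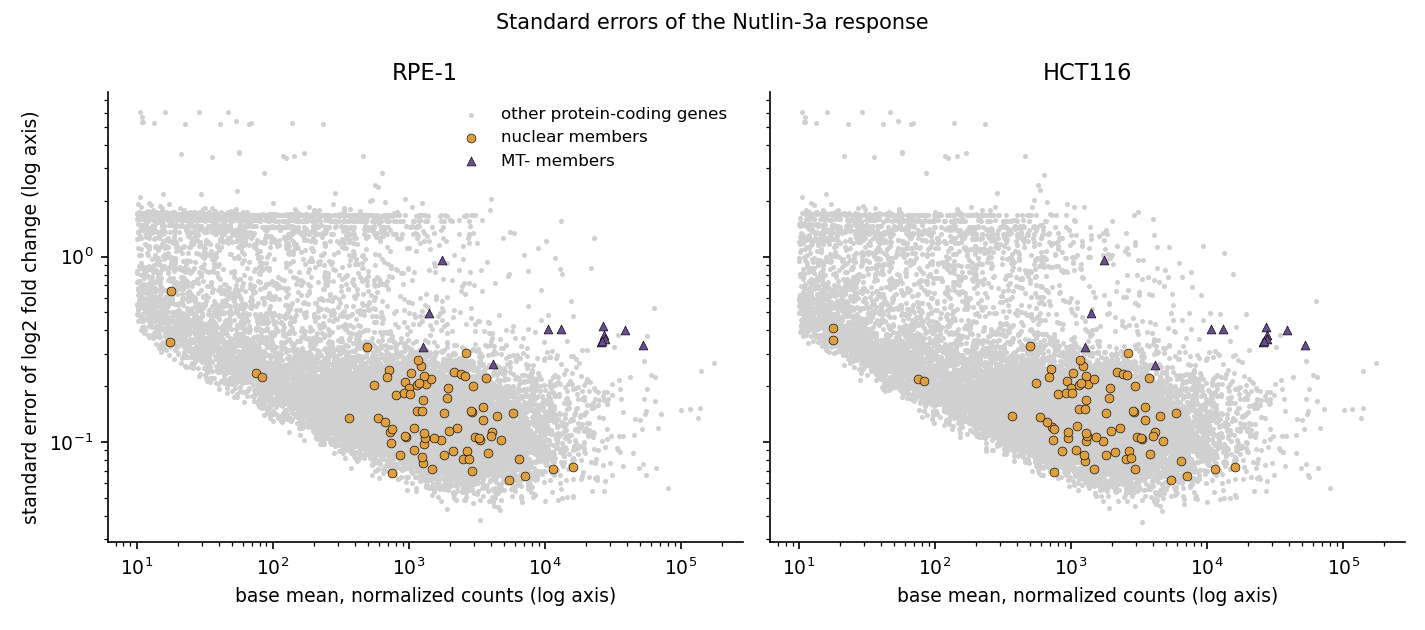
SE of the log2FC (y axis, log scale) against base mean in normalized counts (x axis, log scale) for protein-coding genes of base mean at least 10 in RPE-1 and HCT116. Nuclear members fall within the cloud of other genes, and MT- members lie toward its upper edge, with SEs from 0.26 to 0.96 in both lines.

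Several MT- genes share bases, and their separate values depend on how reads over the shared part were counted. The windows below are from the hg38 mitochondrial sequence, + strand, read 5′ to 3′, with the bases that belong to both genes in capitals and 30 bases on each side. They are shown because each of these pairs overlaps by more than a single base. MT-ATP8 and MT-ATP6 share 46 bases, from 8527 to 8572, which is 22.2% of MT-ATP8, and MT-ND4L and MT-ND4 share 7 bases, from 10760 to 10766.
MT-ATP8 and MT-ATP6, chrM:8497-8602: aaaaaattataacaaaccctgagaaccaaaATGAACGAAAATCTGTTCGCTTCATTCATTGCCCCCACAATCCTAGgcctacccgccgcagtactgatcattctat
MT-ND4L and MT-ND4, chrM:10730-10796: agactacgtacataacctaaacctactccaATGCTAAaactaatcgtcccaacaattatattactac
Both pairs are translated from a shared mRNA in 2 reading frames, so that the capitals open with the start codon of the second gene and run on to the end of the first. Per kilobase of exon, the base mean of MT-ATP6 was 6.29 times that of MT-ATP8, and the base mean of MT-ND4 was 5.93 times that of MT-ND4L. Within each pair the log2FC had the same sign in both lines. MT-ATP8 was 0.44 against 0.95 for MT-ATP6 in RPE-1 and 0.80 against 0.56 in HCT116, with SEs of 0.32 to 0.35.

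Among the nuclear members, complex I had the widest gap between the medians of the lines. By the median of the differences of single genes, complex IV was widest (0.28, beside 0.20 for complex I). In RPE-1, 21 of the 38 nuclear members of complex I rose (55.3%) and 2 fell, with a median log2FC of 0.36. In HCT116, 4 rose (10.5%) and 3 fell (7.89%), with a median of 0.08 (0.0046 with the median of all genes taken out). Of protein-coding genes with a base mean of at least 100, 30.2% rose in RPE-1. For HCT116, 23.4% of such genes rose and 19.2% fell, so complex I had smaller shares called both ways there. The largest rises in RPE-1 were those of NDUFA3 (1.07 ± 0.33), NDUFA4 (0.87 ± 0.15) and NDUFA2 (0.71 ± 0.21), all small accessory subunits. In HCT116 these were at 0.29 ± 0.33, 0.21 ± 0.15 and 0.03 ± 0.21 and were not called. By symbol NDUFA4 and its paralog NDUFA4L2 count here with complex I, although the NDUFA4 protein is now placed in complex IV.

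In HCT116 the subunits called higher were NDUFV3 (0.55 ± 0.08), NDUFS5 (0.52 ± 0.12), NDUFB5 (0.30 ± 0.08) and NDUFB2 (0.30 ± 0.10). These 4 also rose in RPE-1, by log2FC of 0.27 ± 0.08, 0.54 ± 0.12, 0.39 ± 0.08 and 0.52 ± 0.10.

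NDUFA6, an accessory subunit of the LYR-motif family, was the only member that fell in both lines. Its log2FC was -0.31 ± 0.09 in RPE-1 (adjusted p = 0.00332) and -0.51 ± 0.09 in HCT116 (adjusted p = 2.93e-07). The other members counted with complex I and called lower did not fall in both. NDUFB6, an accessory subunit of the membrane arm, fell in HCT116 (-0.25 ± 0.09) and was at 0.14 ± 0.09 in RPE-1. NDUFA4L2, a paralog of NDUFA4 known to be induced under low oxygen, had the largest fall of any member, in HCT116 (-1.91 ± 0.41, 0.266-fold, adjusted p = 3.02e-05), beside 0.23 ± 0.35 in RPE-1. Its base mean was 17.7, low for a member, whereas that of NDUFA4 was 1256.

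NDUFV2, a subunit with an iron-sulfur cluster in the NADH-oxidizing arm, fell in RPE-1 (-0.74 ± 0.22, adjusted p = 0.00426) and was at 0.44 ± 0.21 in HCT116 (adjusted p = 0.119). Its base mean of 83.5 was low for a nuclear subunit, of which 75 of 82 were above 100. The listed pseudogene NDUFV2P1 held a base mean of 1222, 14.6 times that of the gene itself, and had a log2FC of 0.24 ± 0.08 in RPE-1 and -0.00065 ± 0.08 in HCT116. NDUFV2 (chr18:9102630-9134345, + strand, hg38, GENCODE 44) also shares 28.4% of its exonic bases with another annotated gene on its strand. The value of NDUFV2 is uncertain for these reasons, and the part of either in it was not tested.

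Complex II had like medians in both lines. All 4 subunits had a log2FC above 0 in each, with medians of 0.33 in RPE-1 and 0.33 in HCT116, and only SDHA, the flavoprotein that oxidizes succinate, passed the test. Its log2FC was 0.24 ± 0.07 in RPE-1 (adjusted p = 0.00162) and 0.40 ± 0.07 in HCT116 (adjusted p = 5.21e-08). SDHA, with a base mean of 753, shares 21.7% of its exonic bases with another gene on its strand. Its listed pseudogenes SDHAP1 and SDHAP3 had base means of 500 and 446. The part of either in the value of SDHA was not tested. SDHB, the iron-sulfur subunit, was at 0.36 ± 0.20 and 0.39 ± 0.20. SDHC, a membrane anchor, was at 0.39 ± 0.22 and 0.13 ± 0.22, and SDHD, the other anchor, was at 0.30 ± 0.23 and 0.27 ± 0.22. The SEs of these 3 ran from 0.20 to 0.23, and no difference between the lines was called for any of the 4.

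In complex III, 4 of 10 nuclear members rose in each line, where 30.2% and 23.4% of abundant protein-coding genes did in RPE-1 and HCT116. UQCR11, a small subunit, rose in both (0.46 ± 0.12 in RPE-1 and 0.44 ± 0.12 in HCT116). UQCR10 (0.78 ± 0.26), UQCRQ (0.46 ± 0.10) and the core protein UQCRC1 (0.33 ± 0.07) rose in RPE-1, and their values in HCT116 were 0.45 ± 0.26, -0.01 ± 0.10 and -0.06 ± 0.07. UQCRC2 (0.38 ± 0.10), the other core protein, and UQCRFS1 (0.32 ± 0.10), the Rieske iron-sulfur protein, rose in HCT116, and they were at 0.19 ± 0.10 and -0.01 ± 0.10 in RPE-1. The difference between the lines was called for UQCRQ and UQCRC1 and not for UQCR10, UQCRC2 or UQCRFS1 (adjusted p = 0.593, 0.397 and 0.0977).

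CYC1, cytochrome c1, which hands electrons to cytochrome c, was the only member called in opposite directions. It fell in RPE-1 (-0.28 ± 0.08, 0.821-fold, adjusted p = 0.00192) and rose in HCT116 (0.24 ± 0.08, 1.18-fold, adjusted p = 0.0111). With a base mean of 6399 and no listed pseudogene or overlapping exon, it was among the well measured members.

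In complex IV, 7 of 11 nuclear members rose in RPE-1 (63.6%) and 2 in HCT116 (18.2%), and none fell in either. The share of abundant protein-coding genes that rose was 30.2% for RPE-1, below that of complex IV. For HCT116 it was 23.4%, above that of complex IV. The largest rises in RPE-1 were COX7B (0.84 ± 0.21), COX6A1 (0.82 ± 0.23) and COX6B1 (0.70 ± 0.15), and the smallest that passed were COX7C (0.27 ± 0.11), COX5B (0.40 ± 0.14) and COX6C (0.40 ± 0.09). In HCT116 the values of COX7B, COX6A1 and COX6B1 were 0.49 ± 0.21, 0.39 ± 0.23 and 0.12 ± 0.15. The calls in HCT116 were COX7A2 (0.34 ± 0.13) and COX6C (0.29 ± 0.09).

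Several complex IV subunits exist as a broadly expressed form and a form of muscle or testis. Only the broad forms COX6A1, COX7A2, COX7B and COX8A were listed, and of the tissue forms only COX6B2, the testis form of COX6B, was, at a base mean of 17.8. COX6B2 had a log2FC of -0.31 ± 0.66 in RPE-1 and 0.38 ± 0.35 in HCT116. COX8A was at 0.29 ± 0.23 and -0.28 ± 0.23, and shares 35.4% of its exonic bases with another gene. COX7A2L, which joins complexes III and IV into supercomplexes, rose in RPE-1 (0.41 ± 0.07) and was at 0.13 ± 0.07 in HCT116.

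In complex V, 9 of 19 nuclear members rose in RPE-1 (47.4%) and 6 in HCT116 (31.6%), and none fell. Both shares lay above those of abundant protein-coding genes, which were 30.2% for RPE-1 and 23.4% for HCT116. ATP5F1E, a small subunit of the central stalk, had the largest rise in RPE-1 (0.94 ± 0.20) and was at 0.17 ± 0.20 in HCT116. ATP5PO, the subunit that confers sensitivity to oligomycin and links the stator to the catalytic head, rose in RPE-1 (0.75 ± 0.20) and was at 0.27 ± 0.21 in HCT116. ATP5MPL, a small membrane subunit now named ATP5MJ, was the highest nuclear member in HCT116 (0.78 ± 0.11, 1.71-fold, adjusted p = 6.75e-11) and rose in RPE-1 as well (0.57 ± 0.11). ATP5ME (0.55 ± 0.19) and ATP5MD (0.40 ± 0.11), both of the membrane part, rose in HCT116, and they were at 0.37 ± 0.19, not called, and 0.33 ± 0.10, called, in RPE-1.

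The catalytic subunits of complex V, the nuclear members with the highest base means, moved little. ATP5F1B, the beta subunit, had a base mean of 16010 and a log2FC of 0.01 ± 0.07 in RPE-1 and -0.15 ± 0.07 in HCT116. ATP5F1A, the alpha subunit, was at 0.17 ± 0.07 in both lines, and neither passed the test. ATP5F1C, the gamma subunit, rose in RPE-1 (0.29 ± 0.08). The c-ring that protons turn is encoded by 3 genes for an identical mature protein. Of these ATP5MC3 rose slightly in both lines (0.15 ± 0.06 and 0.22 ± 0.06), while ATP5MC1 (0.27 ± 0.28 and 0.26 ± 0.28) and ATP5MC2 (0.52 ± 0.23 and 0.33 ± 0.23) were not called. The smallest calls upward besides ATP5MC3 were ATP5PF (0.23 ± 0.08) in RPE-1 and ATP5PB (0.27 ± 0.11) and ATP5MF (0.29 ± 0.11) in HCT116.

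In all, 12 nuclear members rose in both lines: SDHA, UQCR11, COX6C, the complex I subunits NDUFB2, NDUFB5, NDUFS5 and NDUFV3 and the complex V subunits ATP5MC3, ATP5MD, ATP5MF, ATP5MPL and ATP5PB. Another 31 of the 82 were called in neither line, and 60 had the same sign in both. The same counts were not made over all genes, so whether members agree between the lines more than other genes was not tested. Across the 82 genes, which are not independent replicates, Spearman's rho between the log2FC of the lines was 0.21.

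The test of the difference between the lines named 12 of the 92 members with a base mean of at least 10, and all of them are nuclear. The log2FC was higher in RPE-1 for 10 members, where 11.3% of all 20764 genes tested were, and lower for 2, where 10.4% were. Beside all genes tested, the members were thus near the background upward and under it downward. Of the 12078 protein-coding genes of base mean at least 100, 1875 were higher in RPE-1 and 1737 lower. Among the 75 nuclear members above that limit, 9 were higher and 1 lower, a somewhat smaller share upward and a much smaller one downward. The largest difference was that of NDUFA4L2 (2.14 ± 0.54, adjusted p = 0.00076). ATP5F1E (0.77 ± 0.28), NDUFB11 (0.73 ± 0.24), NDUFA4 (0.67 ± 0.21) and NDUFS4 (0.59 ± 0.14) followed. The remaining 5 were COX6B1, UQCRQ, UQCRC1, NDUFB6 and COX7A2L, with differences of 0.28 to 0.58. NDUFV2 (-1.18 ± 0.31, adjusted p = 0.00142) and CYC1 (-0.53 ± 0.11, adjusted p = 5.12e-05) were lower in RPE-1. Called or not, the difference was above 0 for 58 of 79 nuclear members tested, with a median of 0.16, whereas its median over all genes tested was 0.

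**Figure D4:**
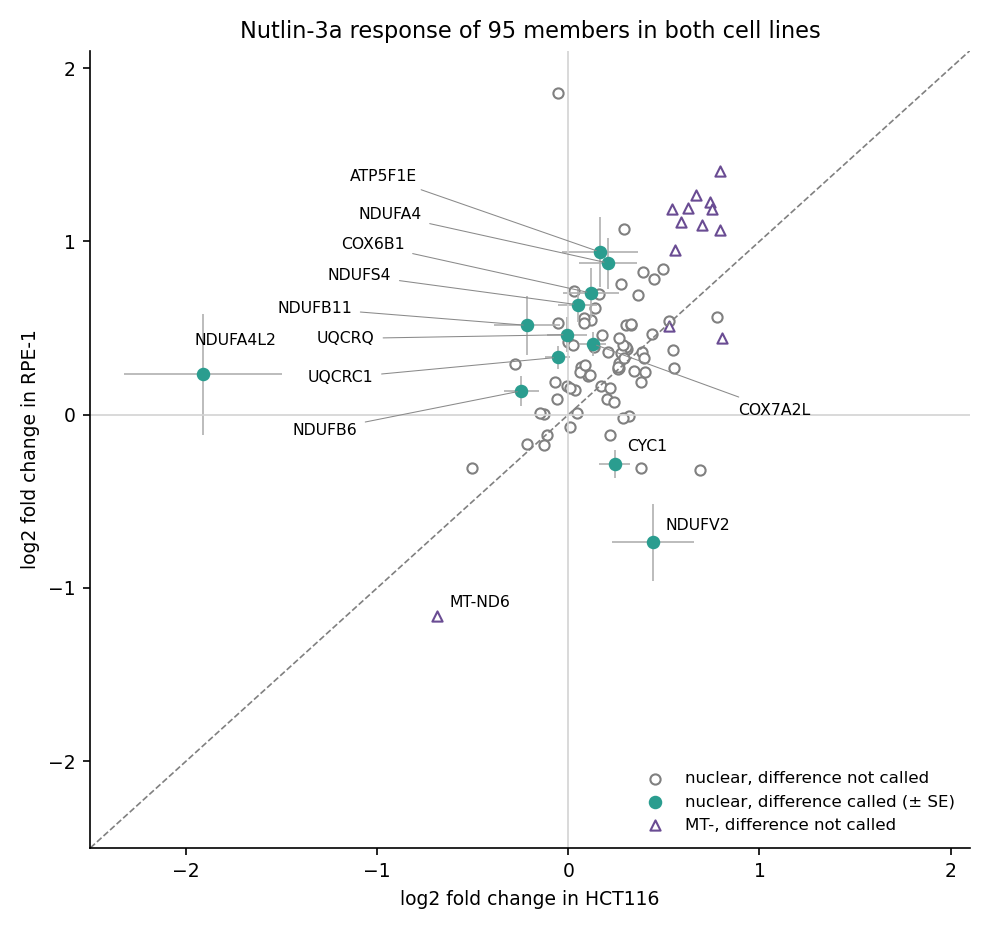
Log2FC in RPE-1 (y axis) against HCT116 (x axis) for the 95 members, circles for nuclear and triangles for MT- members, with the dashed line at equal values. Filled points with bars (± SE) are the 12 members whose difference was called. Of these, 10 lie above the line, and CYC1 and NDUFV2 lie below it.

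Many small subunits have processed pseudogenes that can take up reads. They were matched by symbol, which misses copies of MT- genes written without the hyphen, and the part of such copies was not tested. For 36 members, all nuclear, 60 pseudogenes were listed under the parent's symbol, 25 of them with a base mean of at least 100. Of these 25, 11 rose and 1 fell in RPE-1, beside 19.3% and 13.6% of all listed genes. In HCT116 1 rose and 0 fell, where those shares were 14.9% and 12.2%. The sign was that of the parent for 15 of the 25 in RPE-1 and for 19 in HCT116. Over all listed genes, 53.1% had a log2FC above 0 in RPE-1, and 56.2% did in HCT116. No chance level of a shared sign was computed, so whether pseudogenes follow their parents was not tested. NDUFA4P1 was at 0.99 ± 0.19 in RPE-1 and 0.10 ± 0.19 in HCT116, beside 0.87 and 0.21 for NDUFA4. ATP5F1EP2 was at 1.03 ± 0.29 and 0.23 ± 0.29, beside 0.94 and 0.17 for ATP5F1E. COX6A1P2 had a base mean of 2440, above the 1284 of COX6A1, with 0.38 ± 0.09 and 0.06 ± 0.09. SDHAP1 went the other way from its parent in RPE-1, where it fell (-0.39 ± 0.13) and SDHA rose. Reads of a gene and a near-identical copy may have been split between them, or dropped where only uniquely aligned reads were kept. The values of these members are uncertain to that extent.

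**Figure D5:**
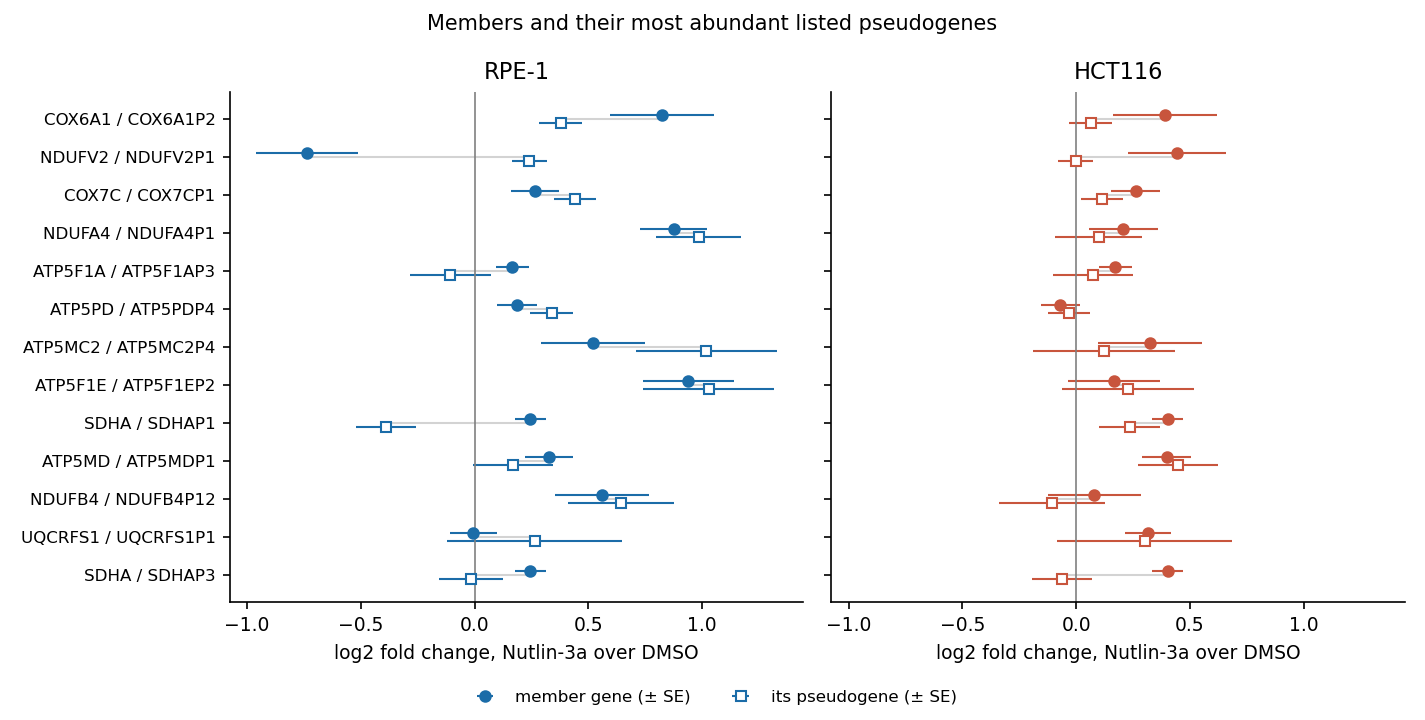
Log2FC ± SE (x axis) of members (filled circles) and of their listed pseudogenes with a base mean of at least 400 (open squares), 13 pairs (y axis), in RPE-1 and HCT116. NDUFV2 with NDUFV2P1 and SDHA with SDHAP1 lie on opposite sides of 0 in RPE-1, with both genes of each pair called.

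The nuclear members have mostly short transcripts, and transcript length was compared with their response. Over the 75 nuclear members of base mean at least 100, the median transcript length had a median of 652 bases, beside 2055 for 11971 other protein-coding genes. Across these 75 genes, Spearman's rho between that length and the log2FC was -0.18 in RPE-1 and -0.02 in HCT116. For the 11971 others it was -0.05 and 0.04. Among non-members with a median transcript under 1000 bases, 33.8% were called higher in RPE-1 and 22.0% in HCT116. Among the 55 nuclear members of that length, 56.4% were called higher in RPE-1 and 21.8% in HCT116.

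Promoters of nuclear subunits are known for sites of NRF1, of ETS factors such as GABPA and of YY1. Windows of 300 bases (250 before to 50 after the start, RefSeq, GRCh38.p14) were matched for 64 of the 82 nuclear members, 77 windows in all, and searched on both strands. The NRF1 letters GCATGCGC, which overlap with their own reverse complement, were in 19.5% of the members' windows and in 3.05% of all 35116 windows. The ETS letters CCGGAAG were in 27.3% and 10.3%, and the YY1 letters AAGATGGC, which can also hold a start codon, in 16.9% and 2.89%. Members with and without these letters had like medians. In RPE-1 the median log2FC was 0.36 for the 14 members with the NRF1 letters and 0.33 for the other matched members, 0.34 and 0.34 for the 20 with the ETS letters, and 0.36 and 0.31 for the 12 with the YY1 letters. In HCT116 the 6 medians ran from 0.13 to 0.21.

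The 4 promoters below show the letters in members with unlike responses: NDUFA6, which fell in both lines, NDUFS4 and UQCRC1, which rose in RPE-1 and differed between the lines, and COX6A1, which rose in RPE-1. Each is written 5′ to 3′ on the strand of the gene, with the letters of the 3 motifs in capitals.
NDUFA6, chr22:42090723-42091022, - strand: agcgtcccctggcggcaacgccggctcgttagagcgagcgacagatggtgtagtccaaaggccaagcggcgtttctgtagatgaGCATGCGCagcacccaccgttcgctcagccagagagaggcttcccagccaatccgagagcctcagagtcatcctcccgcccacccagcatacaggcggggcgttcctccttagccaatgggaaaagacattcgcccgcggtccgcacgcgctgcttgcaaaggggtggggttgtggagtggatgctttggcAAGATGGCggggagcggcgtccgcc
NDUFS4, chr5:53560389-53560688, + strand: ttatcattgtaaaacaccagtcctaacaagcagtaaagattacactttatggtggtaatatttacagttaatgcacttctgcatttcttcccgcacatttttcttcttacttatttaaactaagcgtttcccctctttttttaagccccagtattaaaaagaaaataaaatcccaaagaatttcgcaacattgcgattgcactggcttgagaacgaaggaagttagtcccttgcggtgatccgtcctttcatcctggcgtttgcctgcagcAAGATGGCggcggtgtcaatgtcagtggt
UQCRC1, chr3:48609597-48609896, - strand: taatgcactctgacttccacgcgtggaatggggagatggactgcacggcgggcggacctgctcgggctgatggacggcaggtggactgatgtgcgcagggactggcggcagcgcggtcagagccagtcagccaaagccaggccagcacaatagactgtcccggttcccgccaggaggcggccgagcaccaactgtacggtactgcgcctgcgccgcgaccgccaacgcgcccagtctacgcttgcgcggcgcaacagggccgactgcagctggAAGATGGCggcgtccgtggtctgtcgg
COX6A1, chr12:120437863-120438162, + strand: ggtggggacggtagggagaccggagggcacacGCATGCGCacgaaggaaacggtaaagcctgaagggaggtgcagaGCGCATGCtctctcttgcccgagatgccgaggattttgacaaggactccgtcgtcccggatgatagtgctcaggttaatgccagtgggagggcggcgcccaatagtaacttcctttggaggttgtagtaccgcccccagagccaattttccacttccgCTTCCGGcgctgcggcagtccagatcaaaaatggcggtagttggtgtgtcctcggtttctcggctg
The YY1 letters stand just after the start in NDUFA6, NDUFS4 and UQCRC1, whose responses in RPE-1 were -0.31, 0.63 and 0.33. COX6A1 holds the NRF1 letters in both directions and the ETS letters on the opposite strand. A match of letters is a description of the window and not a bound site.

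The factors that express or replicate mitochondrial DNA, taken as 1 list, leaned downward in RPE-1. Of 29 listed, 1 rose and 10 fell in RPE-1, where 19.3% of all listed genes were called higher and 13.6% lower. Of protein-coding genes of base mean at least 100, 30.2% were called higher and 21.2% lower. The falls include genes of replication: POLG (-0.54 ± 0.05), POLG2 (-0.72 ± 0.15), MGME1 (-0.61 ± 0.09) and TWNK. In HCT116 8 rose and 3 fell, beside 14.9% and 12.2% of all listed genes. TFAM, which packages and activates mitochondrial DNA, fell in RPE-1 (-1.13 ± 0.16) and in HCT116 (-0.40 ± 0.16). TWNK, the helicase of its replication, fell in RPE-1 (-0.78 ± 0.10) and rose in HCT116 (0.48 ± 0.10), as did the RNA polymerase POLRMT (-0.25 ± 0.09 and 0.33 ± 0.09). MTERF3, a negative regulator of mitochondrial transcription, fell in both lines (-0.77 ± 0.16 and -0.47 ± 0.15). MTERF1, which binds at the end of the rRNA unit, rose in both (0.43 ± 0.16 and 0.59 ± 0.15). TFB2M, needed to start transcription, was at -0.12 ± 0.09 in RPE-1 and rose in HCT116 (0.55 ± 0.09). The difference between the lines was called lower in RPE-1 for 14 of the 29 and higher for 0, beside 10.4% and 11.3% of all genes tested. Of the 12078 protein-coding genes of base mean at least 100, 1737 were lower in RPE-1 and 1875 higher.

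Regulators of the nuclear members leaned the same way. Of 9, 0 rose and 4 fell in RPE-1, and 3 rose and 2 fell in HCT116, beside the same shares over all listed genes. The coactivator PPARGC1B fell in RPE-1 (-1.05 ± 0.15) and rose in HCT116 (0.62 ± 0.12), while NRF1 fell in both (-0.69 ± 0.10 and -0.66 ± 0.10). PPRC1, a related coactivator, fell in RPE-1 (-0.64 ± 0.12) and was at 0.27 ± 0.12 in HCT116, and the nuclear receptor ESRRA rose in HCT116 (0.70 ± 0.15) and was at 0.29 ± 0.15 in RPE-1. PPARGC1A, with a base mean of 31.7, was at -0.51 ± 1.62 and -0.17 ± 0.86, too wide to give a direction.

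Assembly factors, which build the complexes without staying in them, moved in both directions. Of 53, 11 rose and 6 fell in RPE-1, beside 19.3% and 13.6% of all listed genes. In HCT116 12 rose and 4 fell, beside 14.9% and 12.2%. Most of the 53 have base means above 100. Of protein-coding genes of base mean at least 100, 30.2% rose and 21.2% fell in RPE-1, and 23.4% and 19.2% in HCT116. Beside these, the factors had smaller shares called in both directions in RPE-1 and a smaller share called lower in HCT116. UQCC1 for complex III (0.91 ± 0.06 and 0.83 ± 0.07), SURF1 for complex IV (0.997 ± 0.12 and 0.47 ± 0.12) and NDUFAF8 for complex I (0.75 ± 0.13 and 1.23 ± 0.13) rose in both lines. FOXRED1, for complex I, fell in both (-1.21 ± 0.11 and -0.70 ± 0.11). LYRM7, for complex III, fell in RPE-1 (-0.97 ± 0.16) and was at -0.21 ± 0.15 in HCT116, and COX20, for complex IV, rose in HCT116 (0.98 ± 0.18) and was at -0.11 ± 0.18 in RPE-1. SCO2, a copper chaperone of complex IV and a known p53 target, was at 0.46 ± 0.21 in RPE-1 (adjusted p = 0.0703) and 0.43 ± 0.21 in HCT116 (adjusted p = 0.114), and passed the test in neither.

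Of 77 mitochondrial ribosomal proteins, which translate the MT- mRNAs, 15 rose and 11 fell in RPE-1, beside 19.3% and 13.6% of all listed genes. In HCT116 18 rose and 6 fell, beside 14.9% and 12.2%. Most of the 77 have base means above 100. Of protein-coding genes of base mean at least 100, larger shares were called in RPE-1 (30.2% higher and 21.2% lower). In HCT116 the shares of such genes were 23.4% and 19.2%. The medians were 0.04 in RPE-1, below the 0.08 of all genes of base mean at least 10, and 0.12 in HCT116. The largest changes in RPE-1 were those of MRPS25 (-0.73 ± 0.19), MRPL44 (0.61 ± 0.08) and MRPL10 (0.60 ± 0.17), and in HCT116 those of MRPL27 (0.82 ± 0.07), MRPL39 (0.65 ± 0.10) and MRPL33 (0.64 ± 0.13). Of the 4 listed subunits and carriers that the pattern of symbols left out, COX4I1, a nuclear subunit of complex IV, rose in RPE-1 (0.33 ± 0.07) and was at 0.03 ± 0.07 in HCT116. CYCS, cytochrome c itself, fell in RPE-1 (-0.65 ± 0.17), as did its reductase subunit CYC1, and was at 0.16 ± 0.17 in HCT116. Differences between the lines were called for both COX4I1 (0.29 ± 0.10) and CYCS (-0.80 ± 0.24).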

How the data were processed

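The authors compared RNA-seq libraries within each line (Nutlin-3a against DMSO, 3 libraries per group). The submitters' processing notes name bcl2fastq 2.20.0.422, FastQC 0.11.9, Trimmomatic 0.39, cutadapt 3.3, SAMtools 1.12, featureCounts 2.0.1, DESeq2 1.32.0 and build hg38. The study's methods name segemehl, allowing split reads, for RNA-seq alignment, a filter for uniquely aligned reads, and removal of rRNA reads with SortMeRNA. They describe another library kit than the labels, so whether these steps were applied to these libraries is uncertain. The labels describe a directional kit with rRNA depletion from 200 ng of total RNA. The deposited tables, 1 per line, hold only the authors' own comparison. Per the file headers they give a log2 fold change and its standard error on the log2 scale, a p-value as such and after adjustment, and a base mean, a normalized count signal averaged over libraries. These columns were used because members have no other values, and 0 columns of single libraries went unused. A count model, the design foreseen for values of single libraries, was therefore not run. Library depth was not analysed here, so no interval from counts is given, and values of different tables share a scale only as log2 ratios.

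Calls use the deposited adjusted p under 0.05 (Benjamini-Hochberg over all genes, two-sided). The difference between lines is the log2FC in RPE-1 minus that in HCT116, divided by the root of the summed squared SEs, with a two-sided normal p adjusted over the 20764 genes of base mean at least 10. The lines share no libraries and were taken as independent, although a fit over both would give them a common error estimate. The calculation was tested on simulated data. Positions, exon overlap on the same strand and transcript lengths come from GENCODE 44 (hg38), where all 95 members were found by ID. Symbols are those of the tables. Pseudogenes were matched by symbol (parent, P, number) among pseudogene biotypes. This match cannot find copies of MT- genes whose symbols lack the hyphen. Python 3.11.15, pandas 2.3.3, numpy 2.4.6, scipy 1.17.1 and matplotlib 3.10.9 were used.

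Members and lists were chosen with earlier results of these data known. Genes named are all MT- and SDH members, the 3 highest and 3 lowest calls per complex and line, members called in opposite directions, the 5 largest differences each way, isoform families, the 3 largest called changes of each related list per line, and SCO2, TFAM, POLRMT, PPARGC1A, COX4I1, MDM2 and CDKN1A. Other members named were chosen after their values were seen. A gene that this rule would name is not reported here. Alternatives were other thresholds, wider SEs, the median taken out, other limits on base mean or biotype, and leaving out overlapping members or those with pseudogenes.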

Additional observations from a re-analysis of the deposited data

Results flagged for a closer look

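The 12 members whose response to Nutlin-3a differed between the lines are repeated here with their differences (log2FC in RPE-1 minus log2FC in HCT116). Counted with complex I by symbol were NDUFA4L2 (2.14), NDUFB11 (0.73), NDUFA4 (0.67), NDUFS4 (0.59), NDUFB6 (0.38) and NDUFV2 (-1.18). In complex III they were UQCRQ (0.47), UQCRC1 (0.39) and CYC1 (-0.53). In complexes IV and V they were COX6B1 (0.58), COX7A2L (0.28) and ATP5F1E (0.77). NDUFA4L2 and NDUFV2 have base means of 17.7 and 83.5, low beside the other 10, of which NDUFS4 has the lowest (741).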

How the results depend on the processing

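No paired analysis was possible because the files hold no values of single libraries, and leaving out each replicate was not run for the same reason. The call counts changed with the threshold. With a log2FC of at least 0.5 required, members called were 30 higher and 1 lower in RPE-1 and 5 higher in HCT116, and 6 differences were higher in RPE-1. With SEs widened by 1.5, they were 19 higher and 0 lower in RPE-1 and 4 higher in HCT116, and the differences fell to 0 higher and 1 lower (CYC1). At an adjusted p under 0.01, 11 members were higher in HCT116, and 4 differences were higher. With the median taken out, 8 were higher in HCT116. Over genes of base mean at least 100, 1 difference was lower. The next alternatives were chosen after seeing the data. Leaving out members with a listed pseudogene, all of them nuclear, left 33 higher in RPE-1, 11 higher in HCT116 and 1 difference lower. It moved the median of nuclear complex III members in HCT116 from 0.25 to 0.0074 and that of complex V in RPE-1 from 0.33 to 0.45. Leaving out the 18 members that share at least 10% of their exonic bases left 1 difference lower. Fewer members enter these last alternatives, and for the others the cause was not tested. No median of the nuclear members, the MT- members or a complex, no called member and no MT- member changed sign under the alternatives run for it, and MT-CO1 passed the test in HCT116 over protein-coding genes alone and over genes of base mean at least 100.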
